A study of Mus musculus with 15 samples.

Results

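Stress genes were followed in the heart through chronic kidney disease (CKD), loss of renalase (RNLS) and its return to cardiomyocytes. The 10 genes were listed by symbol: the inducible Hsp70 genes Hspa1a and Hspa1b, the constitutive Hsp70 gene Hspa8, the endoplasmic reticulum Hsp70 gene Hspa5, Hsp90aa1, the Hsp110 gene Hsph1, the Hsp40 gene Dnajb1, the small heat shock protein gene Hspb1, and the cold-inducible RNA-binding protein genes Cirbp and Rbm3. All 10 were found among the 17447 genes of the count table, and all 10 passed the filter on low counts that left 13021 genes to test.

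Hearts of 15 male C57BL/6J mice were sequenced, 3 in each of 5 groups, 18 weeks after surgery. WTSHAM hearts came from wild-type mice after a sham operation. WTCKD hearts came from wild-type mice with most of their kidney mass removed and given a control vector, and WTCKD + RNLS hearts from such mice given AAV9-cTnT-RNLS, a virus that carries RNLS under the cardiomyocyte promoter of cardiac troponin T. KOCKD and KOCKD + RNLS hearts came from rnls-/- mice, made with a TALEN in the same strain, with the same kidney operation and the control vector or the virus. Mice were 6 to 8 weeks old at the start and were injected in week 2. No rnls-/- sham group was analysed here. The sources used here do not say that sham mice received vector, so operation and vector cannot be told apart in WTCKD against WTSHAM. The targeted gene was not analysed here, so the genotype labels were not checked against it. In CPM, the count relative to the scaled library total, cardiomyocyte markers summed to 71494 to 96139 CPM and lung markers to at most 0.667 CPM, and fewer cells of a type and less RNA per cell cannot be told apart in bulk tissue.

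Heat shock proteins are chaperones that hold, fold or sort other proteins. Under heat, ischaemia or other proteotoxic stress, heat shock factor 1 binds heat shock elements in their promoters, and the inducible Hsp70 genes, nearly silent at rest, rise with their Hsp40, Hsp90 and Hsp110 partners. Hspa5 (BiP) answers a separate pathway, the unfolded protein response of the endoplasmic reticulum. Cirbp and Rbm3 code for RNA-binding proteins that rise under mild cooling and follow the daily rhythm of body temperature.

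Promoter windows are shown for the letters known from these pathways. RefSeq windows (GRCm38.p6) were at hand for 7 of the 10 genes, Hspa1a, Hspa1b, Hspa5, Hsph1, Dnajb1, Hspb1 and Cirbp, and the 250 bases before the start are given 5′ to 3′ on the strand of the gene. Capitals mark a heat shock element, GAANNTTC or TTCNNGAA, in Hspa1a, Hspb1 and Hsph1, the endoplasmic reticulum stress element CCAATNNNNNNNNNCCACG in Hspa5, and TCCCCGCC, a motif described for mild cold response, in Cirbp. For Hsph1 and Cirbp the first of 2 annotated starts is shown.
Hspa1a, chr17:34972157-34972406, minus strand: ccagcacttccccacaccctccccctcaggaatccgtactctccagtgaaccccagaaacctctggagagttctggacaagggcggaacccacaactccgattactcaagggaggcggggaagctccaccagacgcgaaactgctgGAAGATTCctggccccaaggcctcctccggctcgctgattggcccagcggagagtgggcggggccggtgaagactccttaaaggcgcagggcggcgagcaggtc
Hspb1, chr5:135887669-135887918, plus strand: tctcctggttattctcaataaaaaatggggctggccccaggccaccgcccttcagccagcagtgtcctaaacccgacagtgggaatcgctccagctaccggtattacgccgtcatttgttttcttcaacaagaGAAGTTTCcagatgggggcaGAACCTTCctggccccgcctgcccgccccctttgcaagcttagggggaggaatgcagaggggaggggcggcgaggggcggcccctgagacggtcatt
Hsph1, chr5:149636337-149636586, minus strand: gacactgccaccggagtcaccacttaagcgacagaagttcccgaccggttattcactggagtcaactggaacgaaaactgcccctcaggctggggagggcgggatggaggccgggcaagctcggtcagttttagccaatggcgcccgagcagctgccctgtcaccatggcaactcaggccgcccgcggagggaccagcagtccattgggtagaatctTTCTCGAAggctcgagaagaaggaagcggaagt
Hspa5, chr2:34771840-34772089, plus strand: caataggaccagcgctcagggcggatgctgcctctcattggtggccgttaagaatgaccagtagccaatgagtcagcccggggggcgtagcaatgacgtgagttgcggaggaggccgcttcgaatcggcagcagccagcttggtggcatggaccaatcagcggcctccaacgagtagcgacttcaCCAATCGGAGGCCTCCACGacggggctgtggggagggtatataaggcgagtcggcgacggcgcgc
Cirbp, chr10:80167589-80167838, plus strand: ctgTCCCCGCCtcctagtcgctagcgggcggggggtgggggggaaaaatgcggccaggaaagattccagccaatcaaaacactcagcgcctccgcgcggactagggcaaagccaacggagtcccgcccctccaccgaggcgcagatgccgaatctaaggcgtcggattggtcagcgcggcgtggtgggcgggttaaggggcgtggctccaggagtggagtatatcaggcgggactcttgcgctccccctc

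Either heat shock element, searched on both strands, was present in 12.8% of all 32851 promoter windows of this length. It was present in Hspa1a, Hspa1b, Hspb1 and Hsph1, and in neither window of Dnajb1. The endoplasmic reticulum stress element was present in 0.11% of all windows and the cold motif in 4.64%. The cold motif also lay on the opposite strand in Hspa1a and Hspa1b. The windows of Hspa1a and Hspa1b differed from each other at 3 of 250 bases. These matches describe the letters only, and the binding of a factor was not measured.

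Hspa1a and Hspa1b lie on mouse chromosome 17 of the mm9 build, at chr17:35106144-35109069 and chr17:35093381-35096183, both on the minus strand. Of the 150-base windows of the Hspa1a transcript, 38.7% were identical to a stretch of Hspa1b, so reads can be split or lost between both genes and their single values are uncertain. Hspa5 lies at chr2:34627490-34632051, Hspa8 at chr9:40609067-40613283 and Hspb1 at chr5:136363789-136365433, all on the plus strand. Hsp90aa1 lies at chr12:111928815-111940938 and Hsph1 at chr5:150416862-150438951 on the minus strand, and Dnajb1 at chr8:86132074-86135801 on the plus strand. Cirbp lies at chr10:79628730-79635531 on the plus strand and Rbm3 at chrX:7716101-7723006 on the minus strand. The exons of Rbm3 share 94 bases with an antisense transcript, those of Hspa1a share 552 bases with an antisense gene, and those of Hspa8 hold 3 small nucleolar RNA genes.

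The libraries held 10480788 to 13424078 counted reads, and 1 read was worth 0.0736 to 0.0936 CPM, which were scaled by TMM factors. Between replicates the counts varied more than sampling noise in every pair, so no library appears to be a copy of another. Levels of different genes were compared per length, as FPKM, which divides by gene length and library total. By the median of 15 libraries, Hspa8, which folds new proteins in every cell, led at 794 FPKM. Hspb1 followed at 231 FPKM and Hspa5 at 211 FPKM. Hsp90aa1 stood at 52.6 FPKM, Cirbp at 27.9, Rbm3 at 15.7, Hsph1 at 10.2 and Dnajb1 at 5.79 FPKM. Hspa1a and Hspa1b were lowest, at 0.931 and 0.875 FPKM. In 13 of 15 libraries Hspa1a had 16 to 52 reads and Hspa1b 11 to 48.

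**Figure D1:**
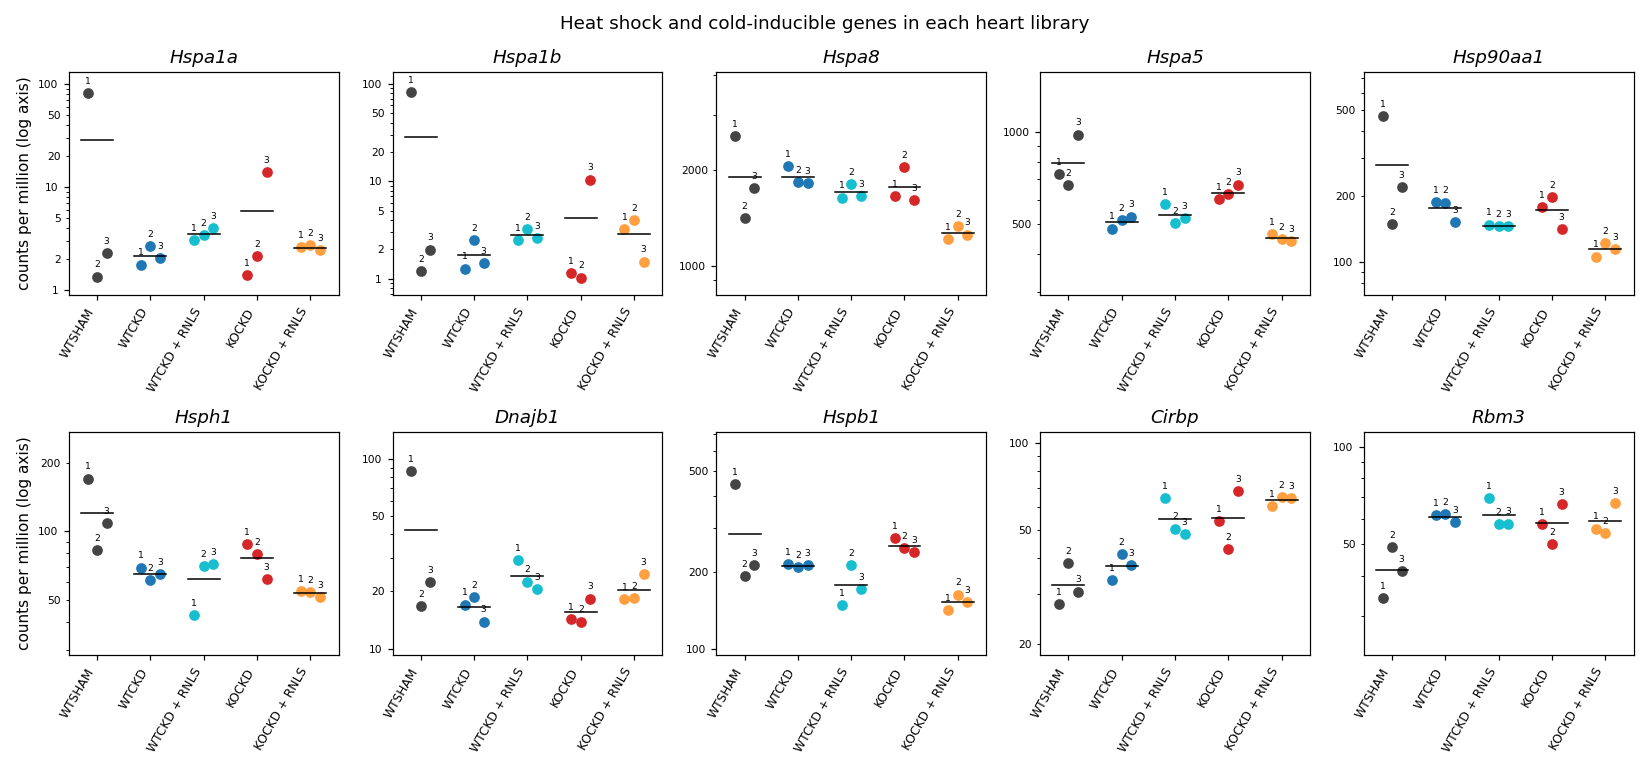
Level in CPM (log axis, own range in each panel) of the 10 genes in each of 15 heart libraries, by group. Points are libraries labelled with their replicate number and bars are group means; WTSHAM replicate 1 is the highest point for 7 genes, with Hspa1a at 82.4 CPM, and the lowest for Cirbp and Rbm3.

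One sham heart stood apart from all other libraries in these genes. Hspa1a was at 82.4, 1.35 and 2.28 CPM in the WTSHAM libraries, replicates 1 to 3. It was at 1.77, 2.66 and 2.04 CPM in WTCKD, at 3.09, 3.43 and 3.98 CPM in WTCKD + RNLS, at 1.40, 2.14 and 14.0 CPM in KOCKD, and at 2.60, 2.73 and 2.43 CPM in KOCKD + RNLS. WTSHAM replicate 1 was thus 45.4 times the mean of the other sham hearts, and KOCKD replicate 3 was the next highest library.

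Hspa1b, the near-identical neighbour, had the same shape. It was at 82.9 CPM in WTSHAM replicate 1, 52.0 times the mean of the other sham hearts, and at 10.4 CPM in KOCKD replicate 3. The other 13 libraries lay between 1.02 and 3.97 CPM. Dnajb1, the Hsp40 partner that drives the Hsp70 cycle, was at 86.8 CPM in WTSHAM replicate 1 and at 13.9 to 29.4 CPM in the other 14 libraries. Hsp90aa1, the stress-inducible Hsp90, was at 468 CPM there and at 106 to 220 CPM elsewhere.

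In all, 7 of the 10 genes were highest of 15 libraries in WTSHAM replicate 1, every heat shock gene of the list except Hspa5, while Cirbp and Rbm3 were lowest there. Of all genes tested, 7.42% were highest and 6.93% lowest in that library. Of 90 other chaperone, co-chaperone and heat shock factor genes, 21 were highest there, among them Hsp90ab1, Hspe1 and Bag3. The same library had the highest Fos and Egr1, immediate early genes that rise within minutes of a stimulus, at 57.2 and 188 CPM, and the lowest Arntl of the sham hearts, 7.67 against 21.3 and 32.6 CPM. The 16 immediate early genes listed summed to 1155 CPM there, to 474 and 462 CPM in the other sham hearts and to at most 1058 CPM elsewhere. Arntl, the immediate early genes and many chaperones thus differed between this 1 library and the other sham hearts. Elsewhere, immediate early genes summed to 1057 CPM in WTCKD replicate 2 with Hspa1a at 2.66 CPM, and to 1058 CPM in KOCKD replicate 3 with Hspa1a at 14.0 CPM. In the RNLS hearts of both genotypes Arntl was at 1.33 to 2.45 CPM with Hspa1a at 2.43 to 3.98 CPM. The part of the clock, immediate early genes and chaperones in one another was not tested. Results that rest on this library are given with and without it.

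The comparison of WTCKD with WTSHAM asked what CKD changed in wild-type hearts. Hspa5 and Hsph1 fell and Rbm3 rose. Unless another tool is named, adjusted p-values come from the quasi-likelihood test of edgeR, with the Benjamini-Hochberg procedure over 13021 genes, and a gene was called under 0.05. By this rule 3 of 10 genes were called, 2 lower and 1 higher, against 2.3% of all genes tested, 1.7% lower and 0.599% higher. Groups did not overlap in the same 3 genes, against 22.5% of all genes tested. Over the 10 genes the median log2 fold change was -0.65, and over all genes -0.01.

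Hspa5 was at 727, 670 and 980 CPM in WTSHAM and at 484, 516 and 530 CPM in WTCKD. Every sham heart was above every WTCKD heart. The log2 fold change was -0.64 ± 0.11 (SE), 1.55-fold lower, with an adjusted p of 0.00524.

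Hsph1, the Hsp110 exchange factor that recycles Hsp70, was at 171, 83.0 and 108 CPM in WTSHAM and at 69.4, 61.1 and 64.9 CPM in WTCKD. The groups did not overlap, with the widest gap at WTSHAM replicate 1. The log2 fold change was -0.89 ± 0.22 (SE) with an adjusted p of 0.0449. Rbm3 was at 34.1, 49.1 and 41.4 CPM in WTSHAM and at 61.5, 62.1 and 58.7 CPM in WTCKD, all CKD hearts being higher. Its log2 fold change was 0.55 ± 0.13 (SE), 1.46-fold higher, with an adjusted p of 0.0402.

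Without WTSHAM replicate 1 the Hspa5 call remained, at a log2 fold change of -0.69 and an adjusted p of 0.00505. Hsph1 then had a log2 fold change of -0.55 (adjusted p = 0.114) and Rbm3 of 0.43 (adjusted p = 0.0913), so that 1 of 10 genes was called, against 2.88% of all genes. When libraries were omitted singly, the Hspa5 call held in 15 of 15 fits, the Hsph1 call in 5 and the Rbm3 call in 7. Only 1 gene was called also without WTCKD replicate 1, 2 or 3, KOCKD replicate 1, or KOCKD + RNLS replicate 1 or 2, and 7 were called without WTSHAM replicate 2. The shares of all genes called with these omissions are not given here. With only the 6 libraries of the comparison none of the 3 was called, and Hspa5 had an adjusted p of 0.0762.

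The remaining 7 genes did not pass the test. Hspa1a and Hspa1b had log2 fold changes of -3.72 ± 1.17 and -4.05 ± 1.24 (SE), with adjusted p of 0.107 and 0.101. Without WTSHAM replicate 1 these values were 0.24 and 0.11. Dnajb1 stood at -1.34 with all libraries and at -0.24 without that heart, and Hsp90aa1 at -0.66 and -0.07. Hspb1 and Hspa8 turned from -0.42 and -0.00 to 0.06 and 0.27.

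**Figure D2:**
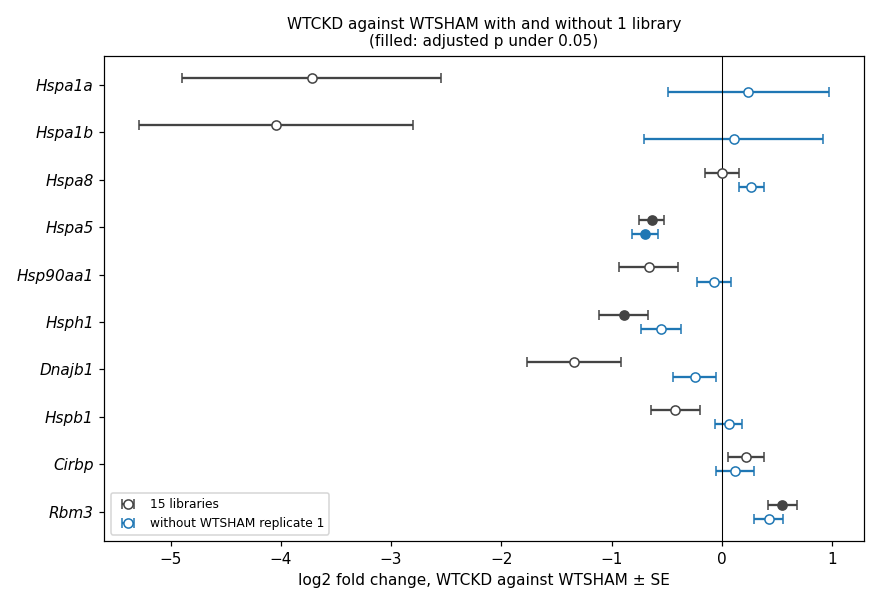
Log2 fold change of WTCKD against WTSHAM for the 10 genes, as estimate ± SE, with all 15 libraries (grey) and without WTSHAM replicate 1 (blue); filled points have an adjusted p under 0.05. Hspa1a moves from -3.72 to 0.24, while Hspa5 stays at -0.64 and -0.69.

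Hspa5 fell together with other genes of the endoplasmic reticulum. Of a list of 16 further genes of folding and stress in that compartment, 6 were called lower in WTCKD than in WTSHAM and none higher. This stood against 1.7% lower and 0.599% higher of all genes tested. The median log2 fold change of the 16 genes was -0.34. Sdf2l1 (-1.15, adjusted p = 0.0336) and Manf (-1.03, adjusted p = 0.00748), both targets of the unfolded protein response, and the disulfide isomerase gene Pdia4 (-0.66, adjusted p = 0.00202) had the largest falls. Hsp90b1, the Hsp90 of the endoplasmic reticulum, was at 529, 469 and 673 CPM in WTSHAM and at 392, 413 and 377 CPM in WTCKD, a log2 fold change of -0.50 (adjusted p = 0.0363). Of the 90 other chaperone genes in all, 9 were lower and none was higher, against the same shares of all genes. Without WTSHAM replicate 1, 4 of the 16 genes were lower, and so they were without WTSHAM replicate 3, which had the highest Hspa5 of all libraries. In the full set of 90, 6 were lower and 3 higher without WTSHAM replicate 1, when 2.88% of all genes were called. In that set 4, 3, 5 and 3 were called without WTSHAM replicate 3 or WTCKD replicate 1, 2 or 3, and the shares of all genes in these fits are not given here. The summed level of 6 macrophage markers was 297 to 358 CPM in WTSHAM and 204 to 273 CPM in WTCKD, with all 6 at a lower fitted level in WTCKD and none called, and its part in the fall of Hspa5 was not tested.

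**Figure D3:**
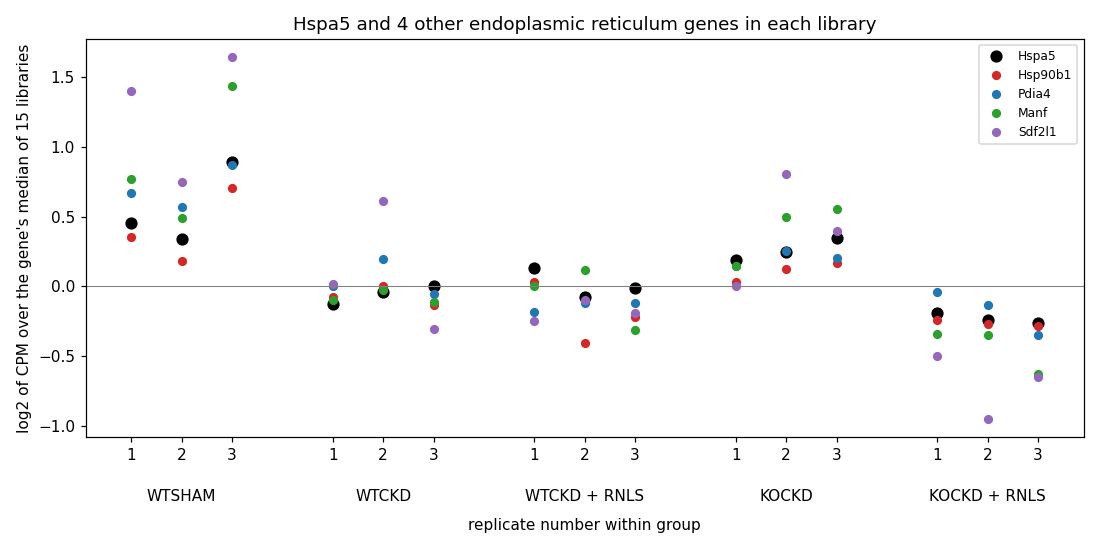
Level of Hspa5 and 4 other genes of the endoplasmic reticulum in each library, as log2 of CPM over the gene's own median of 15 libraries, by group and replicate number. The 3 WTSHAM libraries lie above 0 and the 3 KOCKD + RNLS libraries below 0 for all 5 genes, Hspa5 ranging from 442 to 980 CPM. Sdf2l1, Manf and Pdia4 are shown as the largest falls in WTCKD against WTSHAM. Herpud1 and Sel1l, not shown, lay at 326 to 393 and 105 to 109 CPM in KOCKD + RNLS, above their medians of 303 and 91.8 CPM.

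RNLS in wild-type CKD hearts was compared in WTCKD + RNLS against WTCKD. None of the 10 genes was called, against 4.47% of all genes tested, and 1 of 10 had an unadjusted p under 0.05, against 20.2% of all genes. That gene was Cirbp, at 33.4, 41.2 and 37.7 CPM in WTCKD and at 64.3, 50.5 and 48.4 CPM in WTCKD + RNLS. All treated hearts were higher, 1.45-fold by the fitted means. The log2 fold change of 0.54 ± 0.16 (SE) had an adjusted p of 0.0646 with edgeR's test. DESeq2 called Cirbp, with an adjusted p of 0.0224, as did edgeR without WTSHAM replicate 1, KOCKD replicate 2 or KOCKD replicate 3. The share of all genes that DESeq2 called is not given here.

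Groups did not overlap in 6 of the 10 genes, against 21.2% of all genes tested. Hspa1a, Hspa1b, Dnajb1 and Cirbp were higher and Hspa8 and Hsp90aa1 lower in every treated heart. Dnajb1 was at 17.1, 18.7 and 13.9 CPM in WTCKD and at 29.4, 22.6 and 20.5 CPM in WTCKD + RNLS, with a log2 fold change of 0.54 ± 0.43 (SE) and an adjusted p of 0.53. Hspa5 had a log2 fold change of 0.07 ± 0.11 (SE) and an adjusted p of 0.782. Of the 90 other chaperone genes 3 were called higher and none lower, against 4.47% of all genes tested called in either direction. The 3 were Herpud1 (0.75, adjusted p = 0.0262) and Ddit3 (0.71, adjusted p = 0.0132), which act in endoplasmic reticulum degradation and stress-induced cell death, and the Hsp40 gene Dnajb5 (0.62, adjusted p = 0.036). This count of 3 became 0 without WTCKD replicate 1 or 2, 1 without WTCKD + RNLS replicate 3 and 5 without WTSHAM replicate 1, when 6.03% of all genes were called. The shares for the other omissions are not given here.

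The circadian clock differed between the same groups. Arntl, the clock activator, was at 30.5, 30.7 and 34.0 CPM in WTCKD and at 1.33, 1.86 and 2.45 CPM in WTCKD + RNLS, and 12 of 17 clock genes were called, 9 higher and 3 lower. Per2 was at 4.77 to 6.67 CPM in WTCKD and at 34.4 to 62.8 CPM in WTCKD + RNLS. Fibroblast markers summed to 1217 to 1829 CPM in WTCKD and to 885 to 1079 CPM in WTCKD + RNLS, and endothelial markers to 1196 to 1356 and 873 to 928 CPM, with 3 of 7 and 4 of 6 genes called lower. The part of the clock and of these markers in the values of Cirbp was not tested.

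RNLS in rnls-/- CKD hearts was compared in KOCKD + RNLS against KOCKD. Hspa8, Hspa5 and Hspb1 fell, and none of the 10 genes rose. The 3 called genes stood against 16.1% of all genes tested, 7.05% lower and 9.05% higher. Groups did not overlap in 5 of 10 genes, Hsp90aa1 and Hsph1 being the other 2, all lower with RNLS, against 40.6% of all genes tested. Over the 10 genes the median log2 fold change was -0.50, and over all genes -0.01.

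Hspb1, a small heat shock protein abundant in muscle, was at 273, 248 and 241 CPM in KOCKD and at 142, 163 and 152 CPM in KOCKD + RNLS. Every treated heart was lower, 1.67-fold by the fitted means, with a log2 fold change of -0.74 ± 0.22 (SE) and an adjusted p of 0.0365. Hspa8 was at 1656, 2047 and 1608 CPM in KOCKD and at 1213, 1331 and 1252 CPM in KOCKD + RNLS, again without overlap. Its log2 fold change was -0.48 ± 0.15 (SE) with an adjusted p of 0.0435.

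Hspa5 was at 602, 627 and 673 CPM in KOCKD and at 464, 448 and 442 CPM in KOCKD + RNLS. These treated hearts were the 3 lowest of all 15. The log2 fold change was -0.49 ± 0.11 (SE), 1.40-fold lower, with an adjusted p of 0.00934.

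Among the genes that did not pass, Hsp90aa1 was at 178, 199 and 141 CPM in KOCKD and at 106, 122 and 115 CPM in KOCKD + RNLS, with an adjusted p of 0.145. Hsph1 was at 88.0, 79.6 and 61.8 CPM and at 54.7, 54.1 and 51.3 CPM, with an adjusted p of 0.121. Both were called without WTSHAM replicate 1, with adjusted p of 0.00962 and 0.0426, and then 5 of 10 genes were lower, when 17.9% of all genes were called. With libraries omitted singly, the Hspa5 call held in 15 of 15 fits, the Hspb1 call in 9 and the Hspa8 call in 3. Leaving out any 1 of the 6 hearts compared left only Hspa5 called. Of all genes, 11.2% were called without KOCKD replicate 3, and the shares for the other hearts are not given here. When the counts of each library were also adjusted for a trend with gene length, no member was called, Hspa5 having an adjusted p of 0.0545, Hspa8 of 0.16 and Hspb1 of 0.213.

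**Figure D4:**
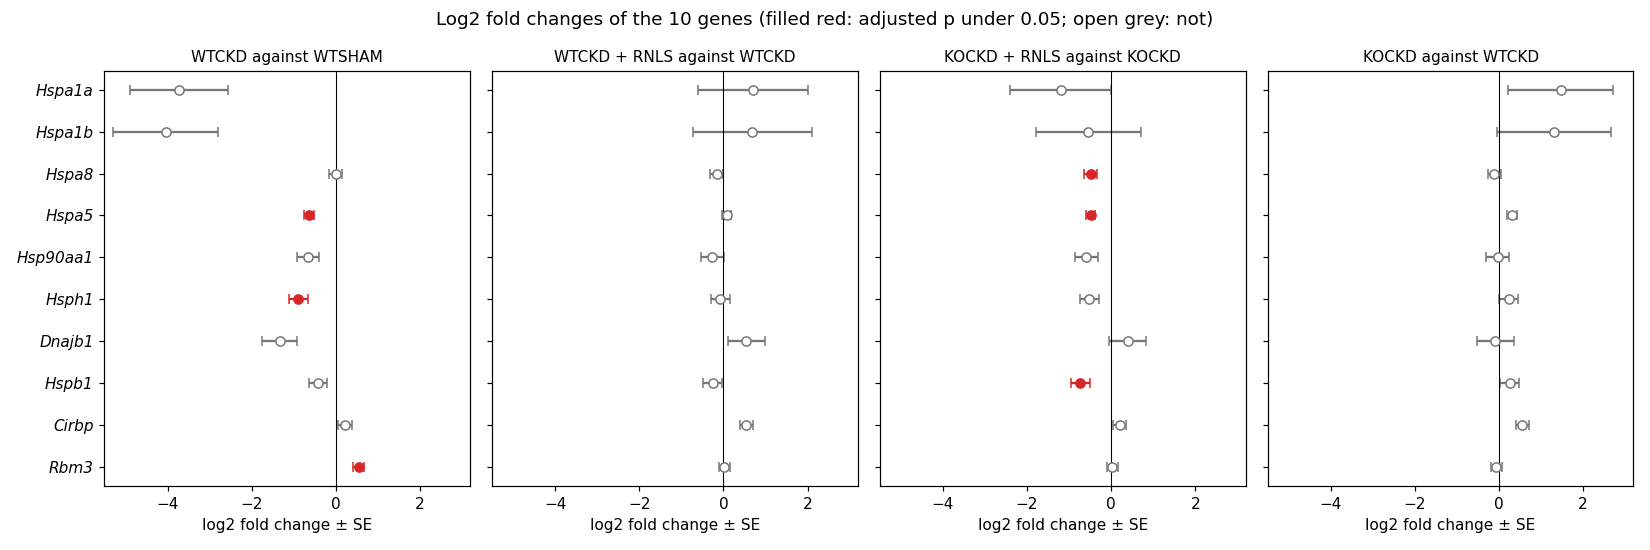
Log2 fold changes ± SE of the 10 genes in 4 comparisons; filled red points have an adjusted p under 0.05 and open grey points do not. In KOCKD + RNLS against KOCKD the called genes Hspa8, Hspa5 and Hspb1 lie at -0.48, -0.49 and -0.74.

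Other chaperones fell with them. Of the 90 listed, 23 were called lower and 3 higher in KOCKD + RNLS than in KOCKD, against 7.05% lower and 9.05% higher of all genes tested. Their median log2 fold change was -0.18, and that of all genes -0.01. Among the 10 chaperonin genes, which build the folding chambers of the cytosol and mitochondria, 8 were lower. Among the 16 genes of the endoplasmic reticulum 7 were lower and 1 higher. Without KOCKD replicate 2 the lower calls of these lists became 0 and 2, and without KOCKD replicate 3 they became 2 and 4. Without WTSHAM replicate 3 they were 4 and 7. Sdf2l1 (-1.12, adjusted p = 0.0196), Manf (-0.84, adjusted p = 0.0105) and the mitochondrial chaperonin partner Hspe1 (-0.63, adjusted p = 0.0207) fell most. Hspa2 (0.69), Dnajb14 (0.46) and Sel1l (0.33) rose, with adjusted p of 0.0332, 0.0339 and 0.0223. With the adjustment for gene length 3 of the 90 were called, 1 higher and 2 lower. Without KOCKD replicate 1, 2 or 3 the 26 calls became 13, 2 and 9, without KOCKD + RNLS replicate 1, 2 or 3 they became 7, 7 and 6, and without WTCKD replicate 2 they became 17. When KOCKD replicate 3 was omitted, 11.2% of all genes were called. The shares for the other omissions and for the gene length adjustment are not given here. Fibroblast markers summed to 1054 to 1393 CPM in KOCKD and to 849 to 986 CPM in KOCKD + RNLS. Of their 7 genes 3 were called lower, and 2 had a higher fitted level. Of 6 cardiomyocyte genes 2 were called higher, while the other 4 had a lower fitted level, uncalled. Of 5 atrial genes 3 were called lower, and all 5 had a lower fitted level. The part of these markers in the chaperone values was not tested.

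KOCKD replicate 3, the other heart with raised Hspa1a and Hspa1b, also differed from its group in other genes. Its Arntl was 9.99 CPM against 23.4 and 24.5 CPM, its Dbp 142 against 52.2 and 23.7 CPM, and its atrial markers summed to 2676 CPM against 457 and 119 CPM. Elsewhere, atrial markers summed to 2507 CPM in WTCKD replicate 2, with Hspa1a at 2.66 CPM, and to 153 CPM in WTSHAM replicate 1. Without KOCKD replicate 3, Hspa1a and Hspa1b had log2 fold changes of 0.56 and 1.43 for KOCKD + RNLS against KOCKD. With all libraries these were -1.20 and -0.54, and neither gene passed the test in either fit. In the RNLS hearts Arntl was at 1.40 to 1.62 CPM and 10 of 17 clock genes were called, and the part of the clock in the fall of the heat shock genes was not tested.

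Loss of RNLS in CKD hearts was compared in KOCKD against WTCKD. None of the 10 genes was called by edgeR's quasi-likelihood test, against 0% of all genes tested, and none by DESeq2. With edgeR's test 2 of 10 had an unadjusted p under 0.05, against 10.1% of all genes. Hspa5 was higher in every KOCKD heart than in every WTCKD heart, with a log2 fold change of 0.31 ± 0.11 (SE) and an adjusted p of 0.456. Cirbp was at 53.7, 42.7 and 68.3 CPM in KOCKD, above all WTCKD hearts, with a log2 fold change of 0.56 ± 0.16 (SE) and an adjusted p of 0.444. Groups did not overlap in 3 of 10 genes, Hspb1 being the third, against 19.3% of all genes tested. Of the 90 other chaperone genes none was called by either tool, and 8 had an unadjusted p under 0.05, a share near that of all genes.

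The effect of RNLS was then compared between the genotypes by an interaction term. None of the 10 genes was called, against 0% of all genes tested, and 1 had an unadjusted p under 0.05, against 17.6% of all genes. Hspa5 had the smallest p, with a difference of log2 fold changes of -0.56 ± 0.16 (SE), from 0.07 in wild-type to -0.49 in rnls-/- hearts, and an adjusted p of 0.131. DESeq2 called it, with an adjusted p of 0.0248. The difference was below 0 in 9 of the 10 genes and in 76 of the 90 other chaperone genes, against 48.5% of all genes. Of these 90, edgeR called none, 29 had an unadjusted p under 0.05, and DESeq2 called 5. The shares of all genes above are those of edgeR, and the share that DESeq2 called is not given here.

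Across all 5 groups, 9 of the 10 genes differed by a test with 4 degrees of freedom, against 22.2% of all genes tested. Hspa5 had the smallest adjusted p, 0.000959, followed by Cirbp at 0.00219, and Dnajb1 did not pass, at 0.0692. Without WTSHAM replicate 1, 6 of the 10 passed, 5 did without WTCKD replicate 1 or 2, WTCKD + RNLS replicate 1 or 3, or KOCKD replicate 1 or 2, and 4 without KOCKD + RNLS replicate 1, 2 or 3. Of the 90 other chaperone genes 27 passed, against the same 22.2% of all genes tested. Without KOCKD + RNLS replicate 1, 2 or 3, 15, 17 and 15 of them did. The shares of all genes that passed with 1 library omitted are not given here.

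Both cold-inducible genes had their lowest mean in the sham hearts. Cirbp averaged 32.1 ± 5.60 CPM (SD, n = 3) in WTSHAM, 37.4 ± 3.92 in WTCKD, 54.4 ± 8.63 in WTCKD + RNLS, 54.9 ± 12.8 in KOCKD and 63.3 ± 2.59 in KOCKD + RNLS. No 2 neighbours in this order differed by the test. Its ends did: every KOCKD + RNLS heart, at 60.3, 65.1 and 64.4 CPM, was above every sham heart, at 27.5, 38.3 and 30.4 CPM, with a log2 fold change of 0.98 ± 0.16 (SE) and an adjusted p of 0.00116.

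Rbm3 averaged 41.5 ± 7.50 CPM (SD, n = 3) in WTSHAM and 58.0 to 61.7 CPM in the 4 CKD groups, no pair of which passed the test. It was called higher against WTSHAM in all 4 groups, with log2 fold changes of 0.48 to 0.57. These comparisons share the sham hearts, and without WTSHAM replicate 1 the call of Rbm3 held only for WTCKD + RNLS, at an adjusted p of 0.0363. Cirbp remained called without it in WTCKD + RNLS (0.66), KOCKD (0.68) and KOCKD + RNLS (0.88).

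Against the same sham hearts, 5 of 10 genes were called in WTCKD + RNLS, 3 in KOCKD and 7 in KOCKD + RNLS, against 7.69%, 13.8% and 11.1% of all genes tested. In KOCKD + RNLS the 7 were Hspa8, Hspa5, Hsp90aa1, Hsph1 and Hspb1, all lower, and Cirbp and Rbm3, both higher. Hsp90aa1 was at 106, 122 and 115 CPM there and at 468, 149 and 220 CPM in WTSHAM, with a log2 fold change of -1.29 and an adjusted p of 0.00675. Without WTSHAM replicate 1 these counts were 4, 2 and 5, against 11.3%, 15.5% and 11.7% of all genes tested. Hsp90aa1 in KOCKD + RNLS was still called, at -0.69 with an adjusted p of 0.00735.

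For each heat shock gene the order of the 5 group means was also read against the spread. Hspa5 ran from 451 ± 11.3 CPM (SD, n = 3) in KOCKD + RNLS through 510 ± 23.2 in WTCKD, 536 ± 40.0 in WTCKD + RNLS and 634 ± 35.8 in KOCKD to 792 ± 165 in WTSHAM. KOCKD + RNLS was also the lowest group for Hspa8, Hsp90aa1, Hsph1 and Hspb1, and WTSHAM the highest for all 8 heat shock genes with replicate 1 included. Without it the mean of the other sham hearts was the highest only for Hspa5 (825 CPM), Hsp90aa1 (185 CPM) and Hsph1 (95.7 CPM). For Hspa1a (1.82 CPM) and Hspa1b (1.59 CPM) it was then below the mean of every other group, for Hspa8 (1583 CPM) below all but KOCKD + RNLS, for Hspb1 (204 CPM) below KOCKD and WTCKD, and for Dnajb1 (19.6 CPM) below both RNLS groups. With all libraries, no 2 neighbours in the order of any of these 8 genes differed by the test.

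Within groups, the correlation of the heat shock genes depended on 1 heart. Deviations of log2 CPM from the group means gave a median Pearson r of 0.75 over the 21 pairs of the 7 heat shock genes other than Hspa5, and no pair was negative. Without WTSHAM replicate 1 the median was 0.00 and 10 pairs were negative. Hspa1a with Hspa1b kept an r of 0.92, with shared reads between them, and Hspa8 with Hsp90aa1 of 0.81. KOCKD replicate 3, the next highest library in Hspa1a and Hspa1b, was still included, and r without both hearts is not given here. Cirbp with Rbm3 had an r of 0.83 with WTSHAM replicate 1 and of 0.82 without it, over 15 and 14 libraries. The heat shock genes and the cold-inducible genes were opposed in all 14 pairs, with a median r of -0.54, and in 8 of 14 pairs without it, with a median of -0.45. Hspa5 had a median r of -0.07 with the other heat shock genes, and of 0.37 without that heart. These values describe libraries that share their depth and scaling.

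**Figure D5:**
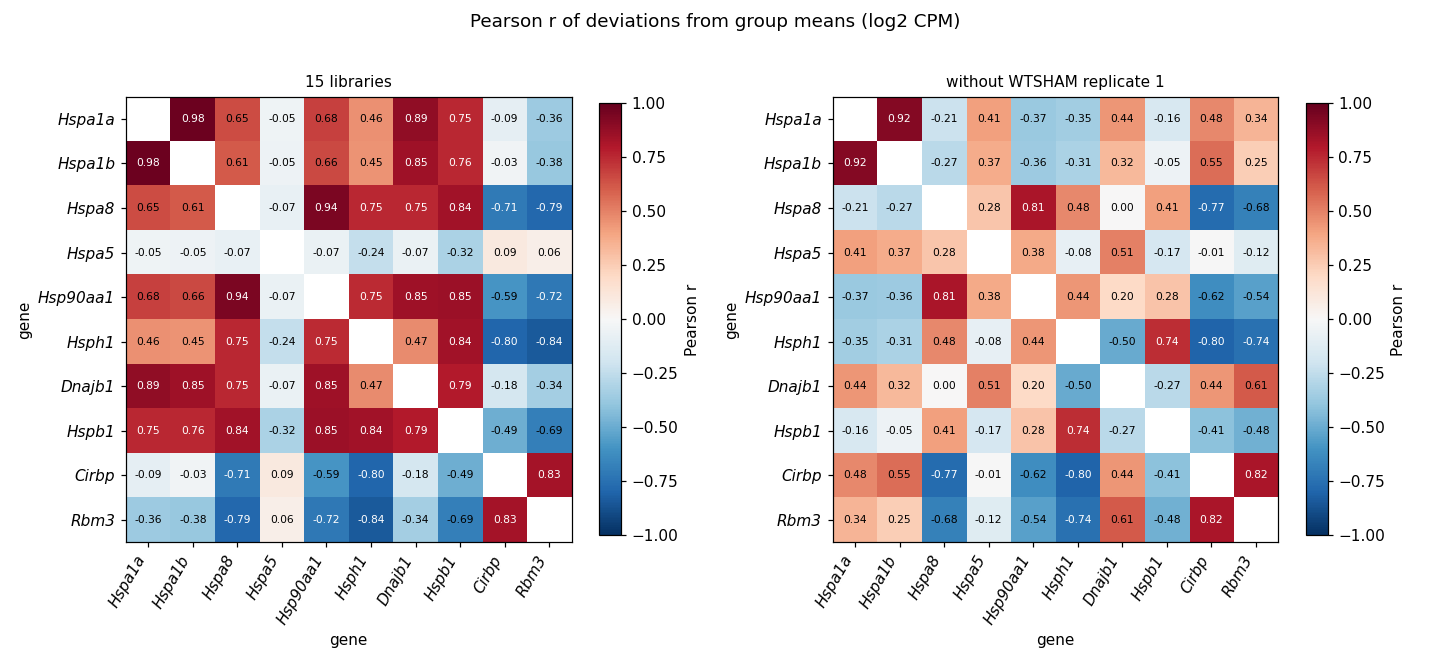
Pearson r between the 10 genes for deviations of log2 CPM from group means, with 15 libraries (left) and without WTSHAM replicate 1 (right); red is positive and blue negative. The block of heat shock genes, with a median r of 0.75 at left, has a median of 0.00 at right, while Cirbp with Rbm3 stays at 0.83 and 0.82.

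The genes most like each member were found among all genes tested by Pearson r of log2 CPM over the 15 libraries. For Hspa5 they were Manf and Hsp90b1, with r of 0.96 and 0.95, and 0.96 and 0.94 without WTSHAM replicate 1. For Hspa8 the closest was Ptges3, the Hsp90 co-chaperone p23, at 0.94, and 0.93 without that heart. For Hsph1 it was Ahsa2, of the family of Hsp90 activators, at 0.90, for Hsp90aa1 it was P4ha1, a collagen prolyl hydroxylase gene, at 0.92, and for Hspb1 it was Tnfrsf12a at 0.91. Cirbp was closest to Hdgfl2 at 0.90 and Rbm3 to Rnf126 at 0.88. Without WTSHAM replicate 1 the r of Ahsa2, P4ha1, Tnfrsf12a, Hdgfl2 and Rnf126 with these members became 0.80, 0.89, 0.90, 0.86 and 0.84. After these came Dnajb2 for Hspa8, Pvr for Hsp90aa1, P4ha1 for Hsph1, Dynll1 for Hspb1, Vps11 for Cirbp and Dis3l2 for Rbm3, with r of 0.85 to 0.91. In the same order, their r without that heart was 0.85, 0.79, 0.79, 0.81, 0.86 and 0.71. For Hspa1a, Hspa1b and Dnajb1 the closest was Phka1, at 0.86, 0.87 and 0.91, which became 0.35, 0.44 and 0.51 without WTSHAM replicate 1. The next closest, Jun for Hspa1a and Hspa1b and Ccdc117 for Dnajb1, kept r of 0.68, 0.74 and 0.77 without that heart. KOCKD replicate 3, the next highest in Hspa1a and Hspa1b, was still included in these values.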

How the data were processed

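Total RNA of 15 mouse hearts was sequenced as stranded mRNA libraries. The authors trimmed the reads with Trimmomatic, used hisat2 against mm9, and obtained gene counts from htseq-count, which were deposited as whole numbers without normalization. The submitters' processing notes name GRCm39 as the build. Gene positions here come from NCBIM37 (mm9) and GENCODE M1, which may not be the annotation used for counting. The authors also deposited FPKM per library from cufflinks, which equal the count over a fixed gene length and the library total. The annotation, tool versions and htseq-count's strand setting were not given in the sources used here, so reads of overlapping antisense genes may not have been told apart.

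Groups came from the sample labels, and all columns were mapped. All tests used edgeR 4.0.16 in R 4.3.3 on the counts, with TMM scaling, filterByExpr (minimum count 10, minimum total 15) and a quasi-likelihood fit of all 15 libraries by group alone. Adjusted p-values (Benjamini-Hochberg) were taken over all 13021 genes tested and called under 0.05. Log2 CPM for correlations used a prior count of 2. Libraries held 10480788 to 13424078 counted reads. The labels do not say more of the replicates than that they are separate samples, so p-values measure the spread between these samples. Same-numbered libraries did not deviate together, with r of -0.36 to 0.33 over 30 pairs. Scripts were tested on simulated counts. Alternatives were DESeq2 1.42.0, DESeq2's size factors in edgeR, no filter, a replicate block, offsets for gene length, only the libraries compared, the study's fold threshold with unadjusted p, and leaving out each library. Leaving out WTSHAM replicate 1 and KOCKD replicate 3 together was chosen after seeing the data.

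The 10 genes and the lists of other chaperones, clock genes, immediate early genes and markers were chosen with earlier results of these data known. All 10 were named whatever their values. Other chaperones were named as the 3 largest rises and falls per comparison among called genes without overlap, or by name, and the closest genes by Pearson r.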

Additional observations from a re-analysis of the deposited data

How the results depend on the processing

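Leaving out 1 library at a time moved the counts of members called to 1 to 7 in WTCKD against WTSHAM, 0 to 1 in WTCKD + RNLS against WTCKD, 1 to 5 in KOCKD + RNLS against KOCKD and 4 to 10 over the 5 groups, and those of other chaperone genes to 3 to 10, 0 to 5, 2 to 34 and 15 to 40. Both counts were 0 in all 15 fits for KOCKD against WTCKD and for the interaction. The share of all genes called moved as well. In KOCKD + RNLS against KOCKD it was 17.9% without WTSHAM replicate 1 and 11.2% without KOCKD replicate 3. For most of these omissions the share is not given here. The 7 members in WTCKD against WTSHAM were called without WTSHAM replicate 2. Over these fits the fold change changed sign for Hspa1a (-4.28 to 0.24), Hspa1b (-4.61 to 0.11), Hspa8 (-0.18 to 0.27) and Hspb1 (-0.63 to 0.0614) in WTCKD against WTSHAM, for Hsph1 (-0.20 to 0.13) and Rbm3 (-0.0748 to 0.0646) in WTCKD + RNLS against WTCKD, and for Hspa1a (-1.66 to 0.56), Hspa1b (-0.98 to 1.43) and Rbm3 (-0.0747 to 0.14) in KOCKD + RNLS against KOCKD. In KOCKD against WTCKD it did for Hspa1a (-0.29 to 1.92), Hspa1b (-0.66 to 1.75), Hsp90aa1 (-0.15 to 0.10), Dnajb1 (-0.23 to 0.00133) and Rbm3 (-0.18 to 0.0229), and in the interaction for Hspa1b (-1.67 to 0.74), Dnajb1 (-0.30 to 0.0172) and Rbm3 (-0.10 to 0.11).

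With the 2 libraries highest in Hspa1a left out, members called were 1, 1 and 6 in the first 3 comparisons and other chaperone genes called 16 in the third. Fold changes that then turned were Hspa1a (0.24), Hspa1b (0.11), Hspa8 (0.27) and Hspb1 (0.0595) in WTCKD against WTSHAM, Hspa1a (0.55) and Hspa1b (1.43) in KOCKD + RNLS against KOCKD, Hspa1a (-0.29), Hspa1b (-0.67) and Hsp90aa1 (0.10) in KOCKD against WTCKD, and Hspa1b (0.74) in the interaction. The shares of all genes called in this fit are not given here.

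The replicate numbers do not pair the libraries, and 4 of 15 libraries correlated best with their own number. A replicate block gave 1 member called in WTCKD against WTSHAM and 5 over the 5 groups, also together with gene length offsets. Gene length offsets gave 0 members and 3 other chaperone genes called in KOCKD + RNLS against KOCKD, and 0 and 1 with the block. With only the libraries compared, 0 members and 1 other chaperone gene were called in WTCKD against WTSHAM and 5 members in KOCKD + RNLS against KOCKD. DESeq2 called 1 member in WTCKD + RNLS against WTCKD, and 1 member and 5 other chaperone genes in the interaction, its share of all genes not being given here. No filter gave 1 member in WTCKD + RNLS against WTCKD. The shares of all genes called with the block, the offsets, only the libraries compared and no filter are not given here. At the study's fold threshold and an unadjusted p under 0.05, members called were 7, 1, 5, 1 and 1 and other chaperone genes 18, 6, 22, 3 and 23 in the 5 comparisons, against 11.3%, 14.4%, 22.3%, 5.61% and 15.2% of all genes tested. Over the 5 groups 48 other chaperone genes had an unadjusted p under 0.05, against 39.7% of all genes. Values near 0 turned for Hspa8 in WTCKD against WTSHAM, to 0.00621, 0.00601 and 0.00655 with DESeq2's size factors (RLE), the block and DESeq2, and for Rbm3 in the interaction, to -0.00120 and -0.00147 with those size factors and DESeq2 and to -0.0204 and -0.0205 with gene length offsets, without and with the block. The cause of these changes was not tested. Hspa1a and Hspa1b rest on 11 to 52 reads in 13 of 15 libraries, and 3 hearts a group limit every comparison.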

Other observations

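Hsf1, the factor that drives the heat shock response, lay between 36.6 and 48.2 CPM in all 15 libraries and its relative Hsf2 between 14.7 and 21.4 CPM. Neither passed edgeR's quasi-likelihood test of any difference among the 5 groups (adjusted p = 0.139 and 0.704). In WTSHAM replicate 1 Hsf1 was at 45.0 CPM and Hsf2 at 17.8 CPM, within the range of the other hearts. These are RNA levels, and the activity of either factor was not measured. Hsp90ab1, the constitutive Hsp90, lay between 1759 and 2496 CPM (adjusted p = 0.703) and Bag3, a co-chaperone of Hsp70 in muscle, between 265 and 470 CPM (adjusted p = 0.566), neither passing that test and both being highest in WTSHAM replicate 1. Between 2 of the groups Hsf1 did not overlap, at 43.8, 48.2 and 45.8 CPM in KOCKD and at 36.6, 37.9 and 39.7 CPM in KOCKD + RNLS. Such groups did not overlap in 40.6% of all genes tested. Of the 4 heat shock factor genes listed, 1 was called lower in that comparison, against 7.05% of all genes.

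Cryab, the major small heat shock protein of the heart, was at 2688, 2836 and 2731 CPM in KOCKD and at 2071, 2243 and 2132 CPM in KOCKD + RNLS. Every treated heart was lower, with a log2 fold change of -0.36 ± 0.11 (SE) and an adjusted p of 0.0416. Hspd1, the mitochondrial chaperonin, was at 379, 335 and 405 CPM in WTCKD and at 416, 575 and 433 CPM in WTCKD + RNLS, all treated hearts being higher, with a log2 fold change of 0.35 ± 0.12 (SE) and an adjusted p of 0.117.

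Among the other marker lists, erythrocyte genes summed to 11.1 to 199 CPM over the 15 libraries, T and B cell genes to 1.02 to 7.57 CPM, adipocyte genes to 379 to 805 CPM and skeletal muscle genes to 3157 to 4583 CPM. Erythrocyte genes were highest in WTSHAM replicate 1, and T and B cell genes in KOCKD replicate 3, the libraries with the highest Hspa1a and Hspa1b. Erythrocyte genes also summed to 152, 153 and 137 CPM in WTCKD + RNLS replicates 1 and 2 and WTSHAM replicate 2. Hspa1a was at 3.09, 3.43 and 1.35 CPM there. T and B cell genes, 2 of 5 of which passed the filter, summed to 1.42 CPM in WTSHAM replicate 1. The part of these markers in the values of Hspa1a and Hspa1b was not tested.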
